A study of Mus musculus with 2 samples.

Results

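The genes described here are the receptor *Tnfrsf11a* (RANK), its ligand *Tnfsf11* (RANKL), the decoy receptor *Tnfrsf11b* (osteoprotegerin), the transcription factor *Nfatc1*, the phosphatase *Acp5* (TRAP) and the fusion protein *Dcstamp*. They were taken by their symbols, and all 6 were among the 55386 features of both libraries. The reporter transcript, listed as EYFP, is given beside them. Transcripts of CD45-positive cells from the aortic adventitia of RankCreRosa26eYFP mice, about 16 weeks old, were counted in 2 libraries, 1 without treatment (steady state, 3 animals pooled) and 1 with Angiotensin II at 1.8 µg/kg/min for 10 days by osmotic pump (AngII, 2 animals pooled). In both, Cre is made under control of the *Tnfrsf11a* gene and switches on eYFP from the *Rosa26* locus. A cell that carries the reporter may therefore have made Cre itself or descend from a cell that did. The features hold no row for Cre, and whether the Cre allele still gives a *Tnfrsf11a* transcript was not given in the sources used here.

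RANK is a receptor of the tumour necrosis factor receptor family. When RANKL binds it on precursors of the macrophage lineage, TRAF6, NF-κB, AP-1 and calcium signals turn on NFATc1, the main transcription factor of osteoclasts, which raises genes for fusion and bone resorption such as *Dcstamp* and *Acp5*. Osteoprotegerin is a secreted decoy that keeps RANKL from RANK. Outside bone, RANK is also made by dendritic cells and by macrophage progenitors of the embryo, and RANKL by activated T cells and innate lymphoid cells.

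*Tnfrsf11a* (ENSMUSG00000026321.7) lies on chromosome 1, 105780718 to 105847981, plus strand, and *Tnfsf11* (ENSMUSG00000022015.8) on chromosome 14, 78277445 to 78308043, minus strand. *Acp5* (ENSMUSG00000001348.15) lies on chromosome 9, 22126727 to 22135711, minus strand. *Dcstamp* (ENSMUSG00000022303.9) and *Tnfrsf11b* (ENSMUSG00000063727.3) are both on chromosome 15, at 39745930 to 39760938 on the plus strand and at 54250619 to 54278484 on the minus strand. These coordinates are 1-based, on GRCm38 with GENCODE M21, and no other gene on the same strand overlapped any member. The 250 bases before the RefSeq transcript start of the receptor gene and of the ligand gene are shown because the 2 transcripts were found mostly in different classes of cells. They are from RefSeq on GRCm38.p6, 5′ to 3′ on the strand of the gene, at chr1:105780473-105780722 and chr14:78308044-78308293, with CpG dinucleotides in capitals. The RefSeq start of the receptor lies just after the GENCODE one, so the last bases of that window are inside the gene as given above.
Tnfrsf11a: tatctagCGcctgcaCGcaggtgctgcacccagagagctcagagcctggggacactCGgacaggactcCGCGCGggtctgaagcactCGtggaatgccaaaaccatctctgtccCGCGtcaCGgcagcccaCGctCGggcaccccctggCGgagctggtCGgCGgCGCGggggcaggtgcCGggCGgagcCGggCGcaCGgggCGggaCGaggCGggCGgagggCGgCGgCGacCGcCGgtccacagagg
Tnfsf11: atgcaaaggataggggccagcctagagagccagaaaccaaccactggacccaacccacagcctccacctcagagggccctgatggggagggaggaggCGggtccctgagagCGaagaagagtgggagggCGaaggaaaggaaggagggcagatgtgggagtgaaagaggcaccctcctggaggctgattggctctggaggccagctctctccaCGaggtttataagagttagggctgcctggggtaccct
The receptor promoter held 31 CpG dinucleotides and 73.6% G or C, and the ligand promoter 4 and 60.4%. Over the 32851 promoter windows in the table the medians were 6 and 52.4%. The core of NFAT sites, GGAAA on either strand, was found 0 times in the receptor window and 1 time in the ligand window, and 55.6% of all windows held it.

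The steady-state library held 346 barcodes and the AngII library 4419, and the filter of the methods (300 to 6500 detected genes, at most 5% mitochondrial UMIs) kept 306 and 4198. UMIs are transcript molecules counted once each. The median cell held 9105 UMIs at steady state and 1092 on AngII, so a share of cells with a transcript cannot be compared directly between the libraries. No barcode was shared. Cells were put in classes by their summed marker UMIs (a gate), and 2 steady-state cells (0.654%) and 989 AngII cells (23.6%) got no class. Markers of a second class (for macrophages and monocytes, one outside that family) also passed in 119 and 806 cells, and doublets were not removed. Each condition is a single library, so there are no replicates, no test was run and no p-value is given. Levels are given in CPM, the UMIs of a gene scaled to a fixed total of UMIs per group, with exact Poisson 95% intervals, shares carry Clopper-Pearson 95% intervals, and all intervals cover counting error only.

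*Tnfrsf11a* was found mainly in macrophages and, on AngII, also in monocytes and *Ccr7*-expressing dendritic cells, with lower values in other dendritic cells. Over all cells it was found in 69 of 306 cells at steady state (22.5%, 18.0 to 27.6) and in 407 of 4198 on AngII (9.70%, 8.82 to 10.6), at 26.6 CPM (21.6 to 32.4) and 32.3 CPM (29.7 to 35.0). Most cells with the transcript held a single UMI, 49 of the 69 and 297 of the 407, and the highest cell held 4 and 8. The AngII level was 1.21 times (0.977 to 1.52) that of steady state, an interval that includes 1. With every cell thinned to the same number of UMIs the ratio was 1.61 (0.706 to 4.53) at 1000 and 2.09 (1.09 to 4.5) at 2000 UMIs, and the latter interval lay above 1.

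Macrophages that carry the resident markers (*Lyve1*, *Folr2*, *Cd163* and others) stood at 48.8 CPM (37.3 to 62.6) at steady state, with the transcript in 46 of 113 cells (40.7%). On AngII they stood at 56.3 CPM (48.9 to 64.5), in 132 of 518 cells (25.5%). After every cell was thinned to 1000 UMIs, which left out 1 and 110 shallower cells, 4 of 112 (3.57%, 0.982 to 8.89) and 22 of 408 (5.39%, 3.41 to 8.05) still held a *Tnfrsf11a* UMI. Type-2 macrophages (*Ear2*, *Retnla*) lay lower in value, at 33.0 CPM (19.9 to 51.5) in 10 of 21 cells and 26.1 CPM (17.2 to 38.0) in 22 of 194 cells. The AngII interval of the type-2 macrophages lay below that of the resident macrophages, while the steady-state intervals overlapped. Other macrophages scored highest for general macrophage markers (*C1qa*, *Adgre1* and others) and did not pass the resident gate. Their median AngII cell still held 1600 CPM of resident and 1034 CPM of type-2 markers, against 7633 and 16952 CPM in those classes. On AngII, other macrophages stood at 47.2 CPM (39.3 to 56.4) and reparative macrophages (*Arg1*, *Spp1*) at 35.7 CPM (24.1 to 50.9). No *Tnfrsf11a* UMI was found in the 6 other macrophages at steady state, whose 10 leading genes held none of their own markers.

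Dendritic cells that express *Ccr7* and *Fscn1* (migratory DC) had the highest value on AngII, 71.4 CPM (47.0 to 103.9) from 27 UMIs in 12 of 56 cells, and an interval that overlapped those of resident and other macrophages. Without the cell with the most UMIs it was 60.6 CPM. Monocytes stood at 27.4 CPM (21.3 to 34.8) in 52 of 381 cells, cDC2 at 22.1 CPM (13.9 to 33.5) and cDC1 at 11.9 CPM (7.3 to 18.3). The monocyte gate was led by immunoglobulin genes (*Ighg2c*, *Jchain*) beside *Chil3* and *Ly6c2*. At steady state the 14 monocytes, 11 cDC1 and 10 cDC2 held 3, 6 and 3 UMIs.

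Lymphocytes were taken as the background, and neutrophils, which also held macrophage RNA, are given beside them. The 49 and 91 B cells held no *Tnfrsf11a* UMI, which allows up to 10.7 CPM at steady state and 7.66 CPM on AngII. The 39 steady-state T cells held none either, which allows up to 8.56 CPM, and the 295 AngII T cells held 6 UMIs in 5 cells, at 4.54 CPM (1.66 to 9.87). AngII neutrophils held 15 UMIs in 12 of 425 cells, at 12.3 CPM (6.90 to 20.3). The AngII value of cDC1 was not above that of the neutrophils, and the cDC2 interval overlapped theirs. Against AngII T cells, the cDC2 interval lay above and the cDC1 interval overlapped. The neutrophils also held 2679 CPM of the macrophage genes *C1qa*, *C1qb* and *C1qc*. Resident macrophages held 12753 CPM of these genes, cDC2 603 CPM, T cells 465 CPM and cDC1 251 CPM. The part of free RNA or doublets in the neutrophil value was not tested. Steady-state cDC1 stood at 25.7 CPM of *Tnfrsf11a* (9.43 to 55.9) with 17.1 CPM of the *C1q* genes, an interval that reached below the B cell limit.

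**Figure D1:**
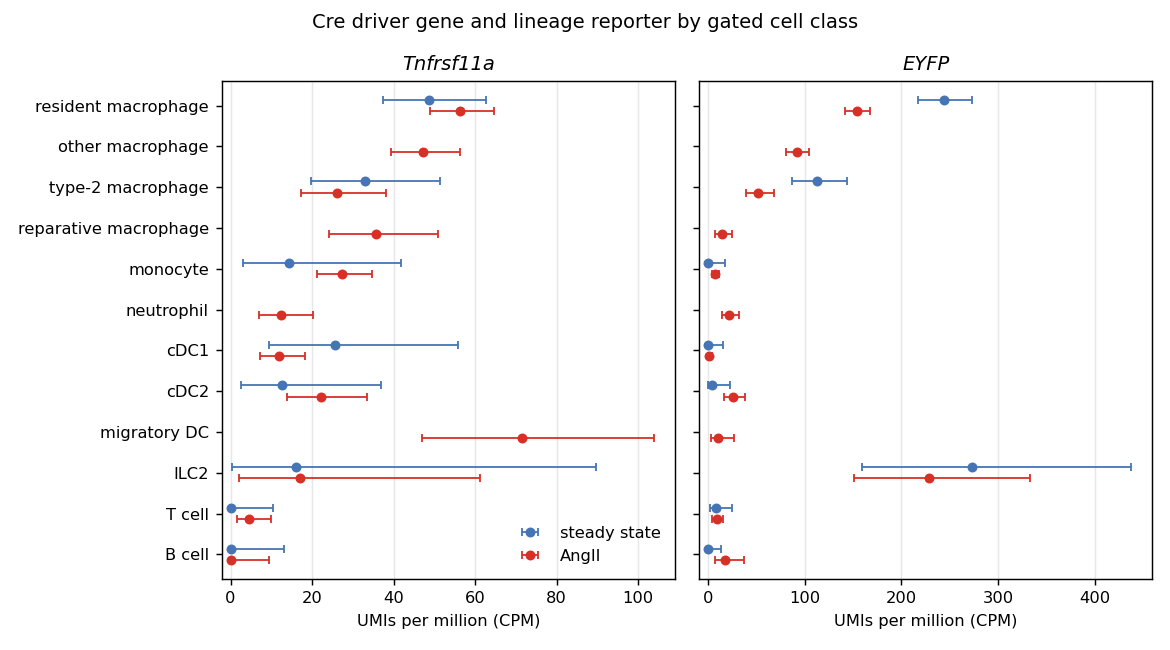
Levels of *Tnfrsf11a* (left) and EYFP (right) in CPM by gated class, as points with exact Poisson 95% intervals, for steady state (blue) and AngII (red); classes with under 8 cells in a library are not drawn. Both transcripts were high in resident macrophages, but migratory DC on AngII had *Tnfrsf11a* at 71.4 CPM with EYFP at 10.6 CPM, and type-2 innate lymphoid cells (ILC2) the reverse order.

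The reporter was found in 121 of 306 steady-state cells (39.5%, 34.0 to 45.3) and 400 of 4198 AngII cells (9.53%, 8.66 to 10.5). Resident macrophages held EYFP at 243.8 CPM (217 to 273) in 87 of 113 cells and at 154.0 CPM (142 to 167) in 175 of 518 cells. Thinned to 1000 UMIs, 17 of 112 steady-state cells (15.2%, 9.10 to 23.2) and 62 of 408 AngII cells (15.2%, 11.9 to 19.1) held an EYFP UMI. Over all UMIs the AngII level was 0.632 times (0.549 to 0.728) that of steady state. With cells thinned to 500, 1000 and 2000 UMIs the ratio was 0.654 (0.333 to 1.38), 0.947 (0.569 to 1.65) and 0.615 (0.437 to 0.874), so of these only the interval at 2000 UMIs lay below 1.

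Driver and reporter did not run in parallel over the classes. B cells held 0 EYFP UMIs in 49 cells at steady state and 7 in 3 of 91 cells on AngII, where the 3 cells held 3894 CPM of the *C1q* genes against 282 CPM in the B cells without EYFP. In monocytes EYFP was absent from all 14 steady-state cells, which allows up to 14.3 CPM, and stood at 7.66 CPM (4.61 to 12.0) on AngII, below the 27.4 CPM of *Tnfrsf11a* in the same cells. Migratory DC on AngII held 4 EYFP UMIs in 2 of 56 cells, 10.6 CPM (2.88 to 27.1), below the interval of their *Tnfrsf11a*. The 3 migratory DC at steady state had the other order, with 7 EYFP UMIs in 2 cells, 87.3 CPM (35.1 to 180), and 1 *Tnfrsf11a* UMI, 12.5 CPM (0.316 to 69.5). These 2 EYFP+ cells held 107 UMIs of the *C1q* genes, 3390 CPM, and the 1 cell without EYFP held 0. The part of free RNA or doublets in this was not tested.

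The opposite of the order in AngII monocytes and migratory DC was seen in cells gated as ILC2. Their gate markers include *Gata3* and *Il1rl1*, so finding these genes in them is in part set by the gating. EYFP was found in 7 of 8 such cells at steady state, 273 CPM (159 to 438), and in 7 of 14 on AngII, 229 CPM (151 to 333), or 399 CPM (236 to 630) without cells of a second class. *Tnfrsf11a* was found in 1 cell of each library, with 1 and 2 UMIs. All 7 EYFP+ cells of each library held *Gata3*. None of the steady-state cells held *Cd3d*, *Cd3e* or *C1qa*, and on AngII 1 of the 7 held *Cd3e* and 1 held *C1qa*. Over the *C1q* genes, 3 of the 7 AngII cells held 18 UMIs, 308 CPM, against 336 CPM in the EYFP- ILC2. Over the whole T cell list the median ILC2 held 688 CPM at steady state and 546 CPM on AngII, against 4479 and 5947 CPM in T cells. The part of free RNA or doublets was not tested. By contrast, 2 of 39 steady-state T cells and 9 of 295 AngII T cells held EYFP, at 8.56 CPM (1.77 to 25) and 9.07 CPM (4.69 to 15.8).

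Cells with the lineage reporter still expressed the Cre driver gene. Of the 87 EYFP+ resident macrophages at steady state, 38 held a *Tnfrsf11a* UMI (43.7%, 33.1 to 54.7), and of the 175 on AngII, 78 did (44.6%, 37.1 to 52.3). Of the EYFP- resident macrophages 8 of 26 (30.8%, 14.3 to 51.8) and 54 of 343 (15.7%, 12.1 to 20) did. EYFP+ cells were deeper, at medians of 10905 against 5770.5 UMIs at steady state and 10220 against 1699 on AngII, so the shares are set by depth as well.

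Per UMI, the level of *Tnfrsf11a* with and without the reporter differed by less than the counting error in resident macrophages. At steady state it was 47.6 CPM (35.6 to 62.4) in EYFP+ and 56.6 CPM (25.9 to 107) in EYFP- resident macrophages, a ratio of 0.841 (0.411 to 1.94). On AngII it was 59.4 CPM (49.7 to 70.3) and 51.4 CPM (40.3 to 64.7), a ratio of 1.15 (0.862 to 1.56). Both intervals include 1. For the cells as called, they leave room for a level up to 1.94 times higher at steady state and 1.56 times higher on AngII. The steady-state estimate rests on 9 UMIs in EYFP- cells, and with cells thinned to 1000 or 2000 UMIs it was 0.287 and 2.02. Thinned to 1000 UMIs per cell, 10 UMIs in 165 EYFP+ and 13 in 243 EYFP- AngII cells gave a ratio of 1.13 (0.445 to 2.80). EYFP- means that no EYFP UMI was counted, and a shallow cell can carry the reporter below detection. Of the steady-state resident macrophages 77.0% held EYFP at full depth and 15.2% when thinned to 1000 UMIs. The intervals of these ratios do not cover cells wrongly called EYFP-.

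**Figure D2:**
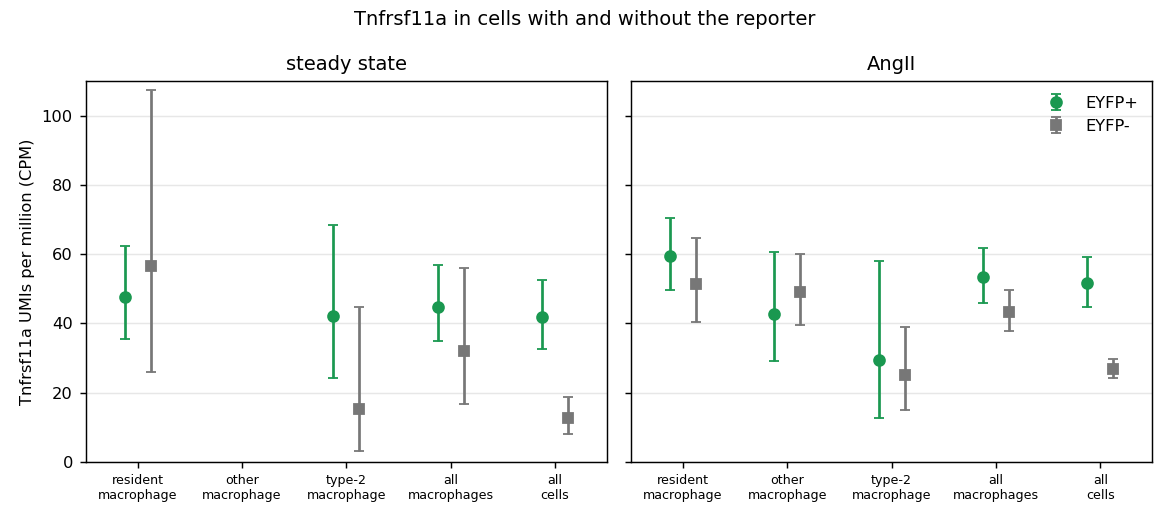
*Tnfrsf11a* in CPM (vertical axis) in EYFP+ cells (green circles) and EYFP- cells (grey squares) by class, steady state on the left and AngII on the right, with exact Poisson 95% intervals; groups with under 8 EYFP+ cells are not drawn. Within the macrophage classes the intervals overlap, and over all cells EYFP+ cells lie higher in both libraries.

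Among all macrophages the ratio was 1.40 (0.750 to 2.83) at steady state, with 68 UMIs in 102 EYFP+ and 12 in 38 EYFP- cells, and 1.23 (1.0 to 1.51) on AngII, with 178 UMIs in 306 and 209 in 1336 cells. The single classes on AngII gave 0.871 (0.560 to 1.32) for other macrophages, 1.18 (0.447 to 2.82) for type-2 macrophages and 1.83 (0.546 to 4.86) for reparative macrophages, of which 5 cells were EYFP+. The intervals of these classes and of the resident macrophages included 1. That of all AngII macrophages began just above 1, and it included 1 with all barcodes (1.07, 0.885 to 1.30), without cells of a second class (1.24, 0.911 to 1.67) and thinned to 1000 UMIs (0.968, 0.458 to 1.91). That of all steady-state macrophages lay above 1 with clusters in place of gates, at 1.95 (1.09 to 3.74). Monocytes on AngII had an interval above 1, with 9 UMIs in 12 EYFP+ and 59 in 369 EYFP- cells, a ratio of 2.69 (1.17 to 5.46). The EYFP+ monocytes held 1962 CPM of the *C1q* genes and the EYFP- ones 1105 CPM, at medians of 12021.5 and 1695 UMIs per cell, and the part of doublets and depth in this was not tested. Over all cells the ratio was 3.30 (2.06 to 5.48) at steady state and 1.92 (1.61 to 2.29) on AngII. The difference over all cells includes the B and T cells, which held little of either transcript.

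Read from the driver gene, EYFP was found in 38 of 46 *Tnfrsf11a*+ resident macrophages at steady state (82.6%) and 78 of 132 on AngII (59.1%). EYFP stood at 266 CPM in *Tnfrsf11a*+ and 222 CPM in *Tnfrsf11a*- resident macrophages at steady state, a ratio of 1.20 (0.951 to 1.51). On AngII it stood at 171 CPM and 136 CPM, a ratio of 1.25 (1.06 to 1.49). The AngII interval lay above 1, and the steady-state interval did not. Without cells of a second class both did, at 1.38 (1.01 to 1.90) and 1.60 (1.26 to 2.02). The AngII interval included 1 with all barcodes, at 1.14 (0.971 to 1.34), and with cells thinned to 1000 UMIs, at 1.49 (0.890 to 2.47), or 2000 UMIs, at 1.08 (0.692 to 1.66). Grouped by EYFP UMIs per cell, *Tnfrsf11a* on AngII stood at 51.4 CPM in resident macrophages with 0, 55.3 CPM with 1, 78.6 CPM with 2 to 3 and 49.4 CPM with 4 or more EYFP UMIs. At steady state the same groups stood at 56.6, 34.5, 71.9 and 39.2 CPM. The level showed no steady rise over these groups in either library. The groups also differed in depth, at medians of 1699, 3809, 8552 and 19613 UMIs per cell on AngII. At steady state the medians were 5770.5, 7699.5, 10318 and 15088. Groups of raw EYFP UMIs are thus in part groups of depth, and they cannot show how the driver varies with the reporter level.

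Beyond the macrophages, most *Tnfrsf11a*+ cells on AngII held no EYFP UMI, but in 3 classes the share with EYFP was higher in value than in *Tnfrsf11a*- cells. EYFP was found in 6 of 52 *Tnfrsf11a*+ monocytes (11.5%), 1 of 12 migratory DC (8.33%) and 3 of 18 cDC2 (16.7%). In the *Tnfrsf11a*- cells of these classes it was found in 6 of 329 (1.82%), 1 of 44 (2.27%) and 1 of 91 (1.10%). Depth was not matched between *Tnfrsf11a*+ and *Tnfrsf11a*- cells. Of the reparative macrophages with *Tnfrsf11a*, 3 of 23 were EYFP+, against 2 of 114 without it. Over all AngII cells 284 were *Tnfrsf11a*+ without EYFP, 277 EYFP+ without *Tnfrsf11a* and 123 held both. At steady state these numbers were 21, 73 and 48.

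**Figure D3:**
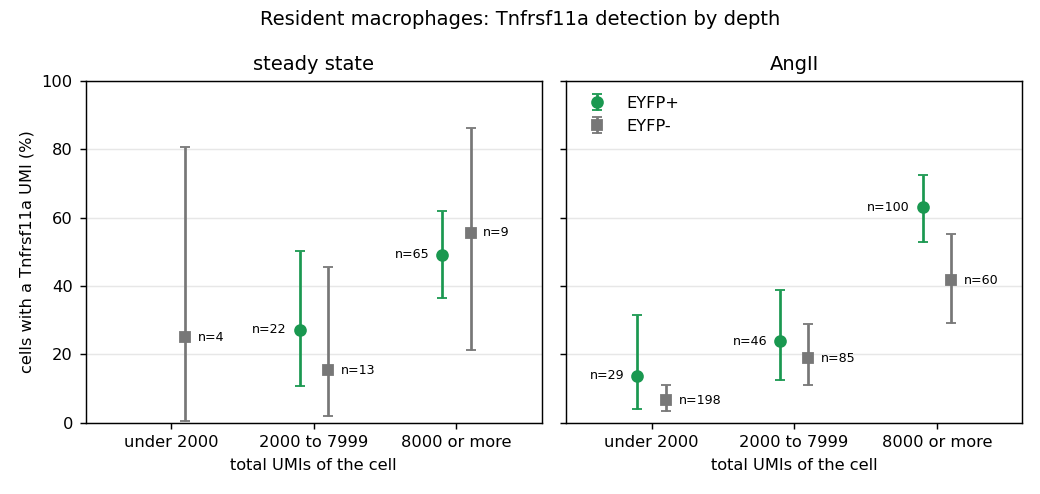
Share of resident macrophages with a *Tnfrsf11a* UMI (percent, vertical axis) by total UMIs of the cell, for EYFP+ (green circles) and EYFP- (grey squares) cells, with Clopper-Pearson 95% intervals and the number of cells beside each point. The share is higher in deeper cells in both groups and libraries, apart from the 4 shallowest EYFP- cells at steady state.

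Among AngII resident macrophages with 8000 or more UMIs, 63 of 100 EYFP+ cells (63.0%, 52.8 to 72.4) and 25 of 60 EYFP- cells (41.7%, 29.1 to 55.1) held *Tnfrsf11a*, at 58.4 CPM and 48.5 CPM. With 2000 to under 8000 UMIs the shares were 23.9% of 46 and 18.8% of 85 cells. At steady state, cells with 8000 or more UMIs gave 32 of 65 EYFP+ (49.2%) and 5 of 9 EYFP- cells (55.6%). The intervals of EYFP+ and EYFP- cells overlapped in each of these groups, on AngII with 8000 or more UMIs only between 52.8 and 55.1%. Such an overlap does not show that the shares are equal, and depth was not matched within a group.

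The ligand *Tnfsf11* was found in few cells, most of them lymphoid. It was found in 8 of 306 cells at steady state (28 UMIs) and 43 of 4198 on AngII (77 UMIs). At steady state the 8 cells gated as ILC2 held 21 of the 28 UMIs, in 5 cells, at 338 CPM (209 to 516), T cells 3 UMIs and the single cell gated as a gamma-delta T cell 4. On AngII, T cells held 61 of the 77 UMIs, in 30 of 295 cells, at 46.1 CPM (35.3 to 59.2), and the 14 ILC2 held 4 UMIs in 3 cells, at 33.9 CPM (9.24 to 86.8). The ILC2 interval at steady state lay above that on AngII, with 8 and 14 cells behind the values. The 140 steady-state macrophages held no *Tnfsf11* UMI, which allows up to 1.59 CPM, and the 1642 AngII macrophages held 1. Monocytes on AngII held 4. Of the 7 EYFP+ ILC2 at steady state, 4 also held *Tnfsf11*. Few cells held both ligand and receptor, and few held the ligand at all. Of the *Tnfrsf11a*+ cells, 1 of 69 held *Tnfsf11* at steady state, with 7 UMIs, and 0 of 407 on AngII. Over all cells the share with *Tnfsf11* was 2.61% at steady state and 1.02% on AngII. With so few ligand cells, these counts do not show that the transcripts avoid each other.

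No UMI of the decoy receptor *Tnfrsf11b* was found in the filtered cells of either library, which allows up to 0.822 CPM at steady state and 0.167 CPM on AngII.

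*Nfatc1* was found in nearly every class. It was found in 128 of 306 cells at steady state (41.8%, 48.5 CPM) and 659 of 4198 on AngII (15.7%, 55.7 CPM). Resident macrophages stood at 51.1 CPM (39.4 to 65.3) and 48.4 CPM (41.6 to 56.1). Type-2 macrophages were lower, at 26.0 CPM (14.6 to 42.9) and 27.1 CPM (18.0 to 39.2), with an AngII interval below that of the resident macrophages. On AngII the values of B cells, 102.2 CPM (73.0 to 139), and neutrophils, 90.5 CPM (74.4 to 109), lay above those of all macrophage classes, and the lowest was that of migratory DC, 13.2 CPM (4.29 to 30.9). The receptor and *Nfatc1* were thus ordered differently, since migratory DC had the highest *Tnfrsf11a* value and B cells held none. In resident macrophages *Nfatc1* in EYFP+ over EYFP- cells gave 0.889 (0.436 to 2.05) at steady state and 1.21 (0.878 to 1.67) on AngII.

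*Acp5*, the acid phosphatase used to stain osteoclasts, was high in B and T cells of both libraries and, on AngII, in other and reparative macrophages. B cells held it at 142 CPM (102 to 194) in 22 of 49 cells and at 166.0 CPM (128 to 212) in 35 of 91 cells. T cells held it at 99.9 CPM (69.6 to 139) in 21 of 39 cells and 81.6 CPM (67.0 to 98.6) in 62 of 295 cells. At steady state it was also found in 5 of 11 nonclassical monocytes, 79.7 CPM (36.5 to 151), and 4 of 6 other macrophages, 76.4 CPM (24.8 to 178), with intervals that overlapped that of T cells. Resident macrophages held 5 UMIs in 113 cells at steady state, 4.0 CPM (1.30 to 9.33), and 102 UMIs in 62 of 518 cells on AngII, 27.7 CPM (22.6 to 33.7). On AngII other macrophages stood at 165.5 CPM (150.2 to 182) and reparative macrophages at 139 CPM (115.0 to 167), both above the resident and type-2 macrophages (32.9 CPM).

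Single cells held much of the *Acp5* in some classes. In migratory DC 72 of 94 UMIs came from 1 cell, and without it the value fell from 249 to 62.6 CPM. Among the 17 AngII cells gated as nonclassical monocytes 81 of 84 UMIs came from 1 cell, and without it the value was 35.1 instead of 760.0 CPM. That cell, with 25181 UMIs, also held 98 of the 117 *Ctsk* UMIs of the library, 25 of *Mmp9*, 2 of *Nfatc1*, 1 of *Tnfrsf11a* and 7 of EYFP. *Ctsk* encodes cathepsin K, the collagen-degrading protease of osteoclasts. Of the markers of its gate, the cell held 6 UMIs of *Spn* and 1 of *Eno3*, and its cell type was not settled further. The cell was singled out after its values were seen.

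In AngII other macrophages *Acp5* stood at 234 CPM in 105 EYFP+ and 139 CPM in 688 EYFP- cells, a ratio of 1.68 (1.38 to 2.05), and without the cell with the most UMIs it was 1.27 (1.02 to 1.58). In resident macrophages the AngII ratio was 0.898 (0.596 to 1.37), and over all macrophages 0.780 (0.664 to 0.914), so the direction was not shared by the classes.

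*Dcstamp*, which osteoclasts and giant cells need to fuse, had its highest level in type-2 macrophages. At steady state 46 of its 48 UMIs lay in 11 of 21 such cells, 79.9 CPM (58.5 to 107), and no resident macrophage held it. On AngII type-2 macrophages held 62 of 142 UMIs in 18 of 194 cells, 60.0 CPM (46.0 to 77.0), other macrophages 8.06 CPM (4.99 to 12.3) and resident macrophages 1.63 CPM (0.599 to 3.55). One AngII cell held 24 of the 62 UMIs, and without it the type-2 value was 37.6 CPM. Without cells of a second class the type-2 values were 50.8 CPM (27.0 to 86.8) at steady state and 94.9 CPM (67.8 to 129) on AngII, so their order turned. With clusters the steady-state value was 51.0 CPM (37.5 to 67.9). The receptor was lower in value in this class than in resident macrophages, as given above.

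With respect to the reporter, *Dcstamp* gave different ratios in the libraries, and these depended on the cells kept. At steady state EYFP+ and EYFP- type-2 macrophages stood at 76.3 CPM and 86.8 CPM (29 UMIs in 12 cells and 17 in 9), a ratio of 0.879 (0.467 to 1.71). On AngII EYFP+ cells held 1 UMI in 21 cells, 3.68 CPM, and EYFP- cells 61 UMIs in 173 cells, 80.2 CPM, a ratio of 0.0459 (0.00114 to 0.266). The intervals of the libraries did not overlap. Without cells of a second class the AngII ratio was 0.257 (0.00635 to 1.52), which overlaps that of steady state, with clusters the steady-state ratio was 1.46 (0.786 to 2.80), and thinned to 1000 UMIs 1 UMI in 16 EYFP+ and 4 in 82 EYFP- cells remained. The difference between the libraries was not tested, since each condition is 1 library. At steady state *Tnfrsf11a*+ type-2 macrophages held *Dcstamp* at 119 CPM and *Tnfrsf11a*- ones at 36.6 CPM, a ratio of 3.24 (1.58 to 7.33), and on AngII the ratio was 0.977 (0.572 to 1.66). The steady-state ratio rests on 10 and 11 cells, and the highest cells held 11 and 9 of the 46 UMIs. Thinned to 1000 UMIs, 0 *Dcstamp* UMIs remained in this class at steady state. These ratios were not recomputed with other filters or classes.

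**Figure D4:**
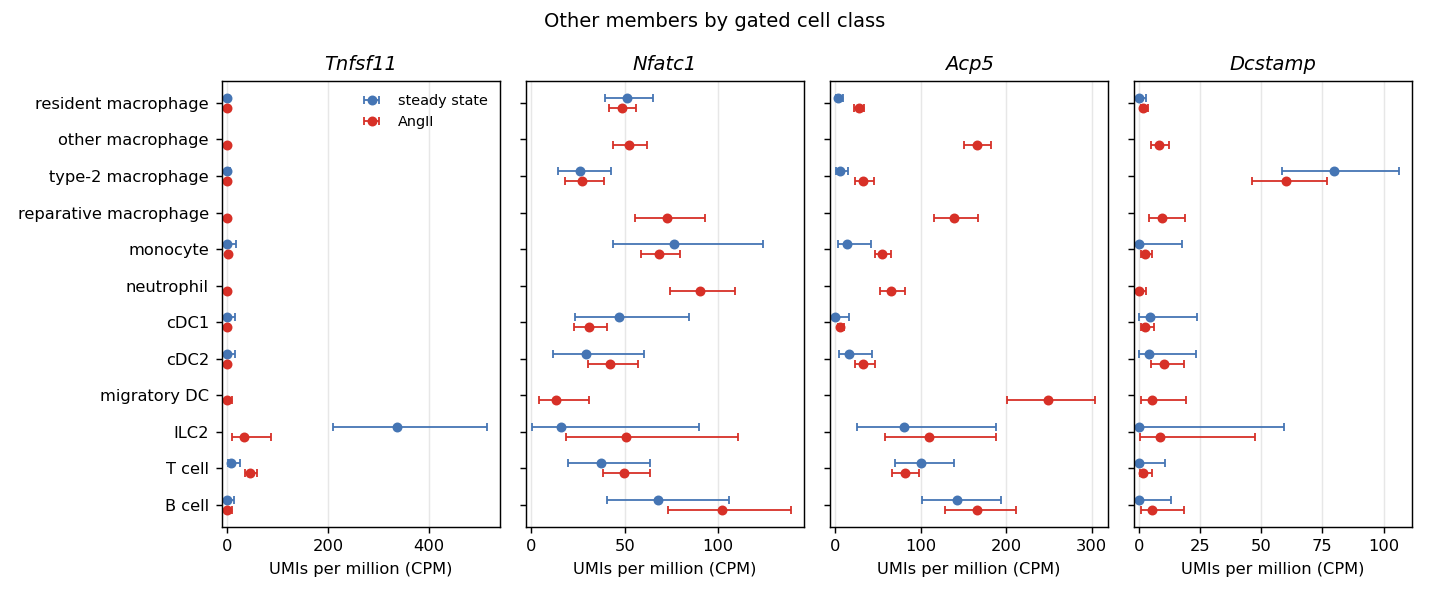
Levels of *Tnfsf11*, *Nfatc1*, *Acp5* and *Dcstamp* in CPM (horizontal axes, each with its own scale) by gated class, as points with exact Poisson 95% intervals for steady state (blue) and AngII (red); classes with under 8 cells are not drawn. *Tnfsf11* is highest in ILC2 and T cells, and *Nfatc1* is found in all drawn classes. *Acp5* is high in B and T cells of both libraries and in AngII other and reparative macrophages, and *Dcstamp* is high in type-2 macrophages.

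Between the conditions, *Acp5* was the member that differed most. A gene was called where its CPM differed at least 2-fold and both groups together held at least 20 UMIs. In resident macrophages 3 members had enough UMIs, and 1 was called, *Acp5*, at 27.7 against 4.0 CPM, a ratio of 6.94 (2.88 to 21.8) that rests on 5 steady-state UMIs. It was 4.17 (1.52 to 15.9) without cells of a second class, 3.58 (1.83 to 7.80) with clusters and 5.99 (0.931 to 251) with cells thinned to 2000 UMIs. Of all 10165 genes with enough UMIs there, 8.25% were called higher and 8.12% lower on AngII. *Tnfrsf11a* had a ratio of 1.16 (0.864 to 1.56) and *Nfatc1* one of 0.947 (0.708 to 1.28). The resident *Acp5* value on AngII lay below those of AngII neutrophils, 65.8 CPM (52.2 to 81.9), and monocytes, 55.3 CPM (46.4 to 65.3). Stray *C1q* RNA also differed between the libraries, at 465 CPM on AngII and 31.4 CPM at steady state in T cells. In B cells it was 457 and 42.7 CPM. The part of free RNA or doublets in the *Acp5* ratio was not tested.

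Over all macrophages 4 members had enough UMIs. *Acp5* was called higher, at 83.9 against 6.87 CPM, a ratio of 12.2 (7.09 to 23.1), where 7.93% of genes were called higher. *Dcstamp* was called lower, at 11.9 against 24.3 CPM, a ratio of 0.489 (0.341 to 0.711), where 8.81% were called lower. Without cells that also carry markers of a second class its ratio turned to 1.13 (0.617 to 2.22), and with clusters it was 0.698 (0.491 to 1.0). The macrophages were made up differently, since 113 of 140 were resident at steady state and 518 of 1642 on AngII, and make-up and level cannot be told apart in this sum. *Tnfrsf11a* had a ratio of 1.12 (0.881 to 1.45), *Nfatc1* of 1.14 (0.898 to 1.46) and the reporter of 0.525 (0.465 to 0.594).

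Over all cells *Acp5* was again called higher, at 75.7 against 31.5 CPM, a ratio of 2.40 (1.98 to 2.93), beside 6.83% of genes higher and 9.82% lower. EYFP was called lower, at 58.4 against 120.1 CPM, a ratio of 0.486 (0.434 to 0.545). *Tnfsf11* had a ratio of 0.557 (0.357 to 0.892) and *Dcstamp* one of 0.599 (0.429 to 0.850), neither of them called.

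**Figure D5:**
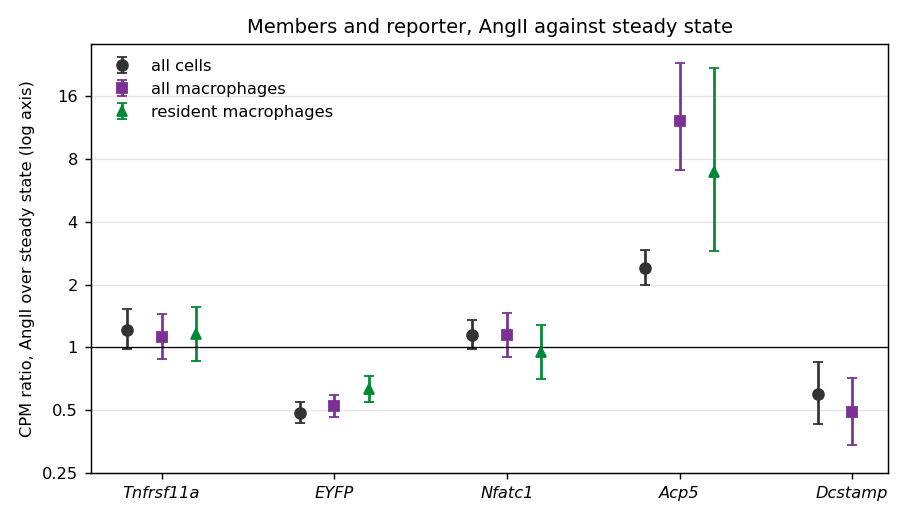
CPM ratio of AngII over steady state (log axis) for 4 members and EYFP over all cells (black circles), all macrophages (purple squares) and resident macrophages (green triangles), with exact conditional 95% intervals; genes with under 20 UMIs over both groups are not drawn. The *Tnfrsf11a* and *Nfatc1* intervals include 1, *Acp5* lies above 2 in point value for each group of cells, and EYFP lies below 1.

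Other genes of the pathway were taken from a list of 59 in 7 groups. In resident macrophages 49 had enough UMIs, 7 were called higher on AngII and 2 lower, with a median ratio of 1.21 against 1.01 over all genes. Of the 19 signalling genes downstream of RANK, none was called higher, and the AP-1 subunit *Jun* was lower, at 721 against 2366 CPM (0.305, 0.289 to 0.321). Of 9 measured genes of ITAM co-stimulation and CSF1, 3 were called higher. These were *Trem2*, a receptor that signals through DAP12, at 372 against 157 CPM (2.37, 2.04 to 2.77), the phospholipase *Plcg2* (2.21, 1.51 to 3.33) and the growth factor *Csf1* (3.06, 1.22 to 9.89, with 5 steady-state UMIs). The repressor of osteoclast genes *Irf8* was called higher as well, at 205 against 88.7 CPM (2.31, 1.89 to 2.84). Of 5 measured resorption genes, *Tcirg1*, a subunit of the proton pump, was higher (2.79, 2.06 to 3.84) and *Mmp9* lower, at 45.7 against 198 CPM (0.231, 0.188 to 0.282). The receptor *Tnfrsf1b* at 2.05 (1.60 to 2.66) and *Sirpa*, which binds CD47, at 2.04 (1.79 to 2.33) were the other genes called higher. The lowest 4 also included the kinase *Tec* at 0.50 (0.398 to 0.630) and the CSF1 receptor *Csf1r* at 0.607 (0.574 to 0.641). Without cells of a second class 4 genes of the list were called higher, and with clusters in place of gates 3.

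Over all macrophages 51 genes of the list had enough UMIs, and 7 were called higher and 3 lower, with a median ratio of 1.20 against 0.981 over all genes. The highest 4 were *Csf1* at 7.47 (3.14 to 23.3), the fusion gene *Ocstamp* at 6.27 (2.07 to 31.0), the kinase *Src* at 4.99 (1.30 to 42.5) and *Trem2* at 2.91 (2.53 to 3.38). *Prdm1* at 2.52 (1.48 to 4.61), *Tcirg1* at 2.50 (1.97 to 3.20) and *Irf8* at 2.30 (1.94 to 2.75) were called as well. *Csf1*, *Ocstamp* and *Src* held 5, 3 and 2 UMIs at steady state. The lowest 4 were *Mmp9*, *Jun*, *Tec* and *Csf1r*, as in the resident macrophages, and the first 3 of them were called.

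Between EYFP+ and EYFP- resident macrophages no member was called, of 2 with enough UMIs at steady state and 3 on AngII. Of all genes, 11.8% were called higher and 4.46% lower in EYFP+ cells at steady state, and 2.24% and 1.26% on AngII. Of the list, 3 of 41 genes were higher and 1 lower at steady state, with a median ratio of 1.02 against 1.05 over all genes. The highest were the kinase *Chuk* at 2.55 (0.654 to 21.9), the adaptor *Gab2* at 2.40 (0.614 to 20.7), *Nfkb2* at 2.04 (0.753 to 7.74) and the kinase *Btk* at 1.98 (0.971 to 4.71). The lowest were *Map3k7* at 0.473 (0.243 to 0.992), *Irf8* at 0.527 (0.332 to 0.867), *Mmp9* at 0.535 (0.393 to 0.740) and *Syk* at 0.558 (0.404 to 0.783). On AngII 1 of 48 was higher, *Csf1* at 2.52 (1.19 to 5.94), and none lower, with a median of 0.970 against 1.01. It was followed by *Traf2* at 1.89 (0.861 to 4.56), *Traf5* at 1.61 (0.914 to 2.94) and *Irf8* at 1.33 (1.14 to 1.56). The lowest there were *Mapk8* at 0.650 (0.380 to 1.11), *Ltbr* at 0.769 (0.581 to 1.02), *Tcirg1* at 0.775 (0.633 to 0.951) and *Syk* at 0.783 (0.658 to 0.931). *Irf8* was lower in EYFP+ cells at steady state and higher on AngII, and this difference between the libraries was not tested.

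Several defining markers of mature osteoclasts were at 0, and others were found. Of 8 such genes, *Calcr*, *Oscar* and *Siglec15* held no UMI in either library, and *Ctsk* held none at steady state. On AngII *Ctsk* was found in 16 cells. *Ocstamp* held 9 UMIs in 3 steady-state cells and 200 in 106 AngII cells, of which 54 lay in other macrophages and 49 in monocytes. *Atp6v0d2* was found in 9 and 49 cells, and *Itgb3* in 11 and 53 cells. *Mmp9* held 248 of its 318 steady-state UMIs in resident macrophages and 994 of its 1551 AngII UMIs in neutrophils. At least 2 of the 8 markers were found together in 9 of 306 steady-state cells (2.94%) and 30 of 4198 AngII cells (0.715%). At least 3 were found together in 0 and 1 of these cells.

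The genes whose level over the 11 AngII classes with at least 20 cells was most like a member were found by Pearson's r of log2(CPM + 10) among 9617 genes. These are descriptions over classes of 1 library that share depth and gates. For *Tnfrsf11a* they were *Daam1* (0.963), *Kcnk6* (0.959), *Nmt1* (0.942), *Gnb1* (0.927) and *Vwa5a* (0.922). For EYFP they were *Idua* (0.922), *Gm15655* (0.919), *Calml4* (0.904), *Ptpra* (0.903) and the resident marker *Folr2* (0.898), none of them among the 5 of the driver gene. For *Tnfsf11* they were *Trdc* (0.998), *1700097N02Rik* (0.996), *Arpp21* (0.995), *Syt13* (0.995) and *Lat* (0.995), of which *Trdc* and *Lat* are T cell genes. For *Nfatc1* they were *Mtdh* (0.943), *Ptk2b* (0.935), *Sec22b* (0.921), *Gm43162* (0.913) and *Rasa3* (0.908). For *Acp5* they were *Arl5c* (0.822), *Ammecr1l* (0.817), *Cdk17* (0.790), *Plgrkt* (0.789) and *Gon4l* (0.778). For *Dcstamp* they were *Hr* (0.912), *Mucl1* (0.894), *Synpo* (0.888), *Btbd17* (0.866) and *Gtpbp8* (0.848).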

How the data were processed

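Per the labels and methods, CD45-positive live cells were enriched with magnetic beads and sorted, and libraries were made with the 10x 3' v3.1 kit. The authors demultiplexed reads with Je, mapped them with Cell Ranger 3.1.0 (named in the submitters' processing notes with bcl2fastq and GRCm38.p6) to GENCODE M24 plus the eYFP sequence, and deposited raw UMI counts per gene and barcode without normalization. The remaining data of the study were not used here.

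Cells were gated as follows. For each class, summed marker UMIs were set against 0.25 of the higher library mean, and a class passed with at least 2 different markers and a signed root Poisson deviance of at least 3. The highest score gave the class, and cells won by the macrophage list that also passed the resident list were called resident. This scoring was settled after marker counts and clusters were seen. Of the AngII resident macrophages 30 of 518, and of the other macrophages 172 of 793, scored under 4. In both libraries the median resident macrophage held 0 UMIs of T cell, B cell and neutrophil markers. The members and all lists were chosen with earlier results of these data known. Named genes are the members and, of the pathway list, up to 4 with the highest and 4 with the lowest ratio in a comparison, and the 5 genes most like a member. *Plcg2*, *Tnfrsf1b*, *Sirpa* and *Prdm1* fall outside this rule and were named after their calls were seen. The leading genes of gates, the marker genes of ILC2 and osteoclasts and the genes of single barcodes are named besides.

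A cell was EYFP+ from 1 UMI, called before thinning. A count of 0 is given as a limit of 3 UMIs over the group. Ratios carry exact conditional binomial 95% intervals. Nothing was tested, since each condition is 1 library. The ratio and its calls were checked on simulated data. Alternatives changed the cell filter (all barcodes, or at least 1000 genes), cells of a second class, the cell with the most UMIs, the EYFP call, the depth (500, 1000 or 2000 UMIs), the classes (Leiden clusters, named by their most frequent gate) and the scaling. Those for the other members by reporter and for the pathway list were chosen after seeing the data. Python 3.11.15, NumPy 2.4.6, SciPy 1.17.1, pandas 2.3.3, scanpy 1.11.5 and Matplotlib 3.10.9 were used. RefSeq promoters matched 3 of the 6 members.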

Additional observations from a re-analysis of the deposited data

Results flagged for a closer look

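*Tnfrsf11b* appeared only outside the cell filter, with 4 UMIs in 1 AngII barcode. This barcode had 6926 detected genes, above the limit of 6500, and 36334 UMIs. It held 337 UMIs of the fibroblast markers, including 96 of *Dcn* and 61 of *Col1a1*, beside 11 of *Ptprc* (CD45), 38 of resident and 90 of type-2 macrophage markers, and no EYFP.

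In resident macrophages the EYFP+ over EYFP- ratio lay on opposite sides of 1 in the libraries for *Tnfrsf11a* (0.841 at steady state, 1.15 on AngII) and *Nfatc1* (0.889 and 1.21). The difference was not tested, and all 4 intervals include 1. The sides depend on the settings, since the steady-state *Tnfrsf11a* ratio was 1.11 with at least 2 EYFP UMIs, the AngII one 0.998 with all barcodes, and the AngII *Nfatc1* ratio 0.909 with clusters.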

How the results depend on the processing

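Among the recomputed values 288 lay within the counting interval of the reported value (for counts of genes, within 1.5 times), 82 lay outside it, and 3 with an interval that excluded 1 turned to the other side of 1. Depth was the main limit, since few UMIs of a gene remain in thinned cells. Thinned to 500, 1000 or 2000 UMIs, *Tnfrsf11a* in EYFP+ over EYFP- steady-state cells was 0.299, 0.287 and 2.02 in resident and 0.373, 0.529 and 2.91 in all macrophages. On AngII it was 2.29 in resident macrophages at 500 and 0.968 in all macrophages at 1000, where it turned. EYFP by *Tnfrsf11a* was 0.728 (resident) and 0.600 (all macrophages) at steady state at 500, and on AngII 1.49 (resident, 1000) and 1.10 (all macrophages, 2000). The AngII over steady state ratio of *Tnfrsf11a* was 2.33, 1.61 and 2.09 over all cells at 500, 1000 and 2000, and 1.58 in resident macrophages at 1000. That of EYFP was 0.463, 0.658 and 0.456 in all macrophages and 0.654, 0.947 and 0.615 in resident macrophages. At 2000 that of *Acp5* in all macrophages was 6.59 and that of *Dcstamp* turned to 2.47. In resident macrophages *Tnfrsf11a* at steady state was 35.4 and 35.7 CPM at 500 and 1000, and EYFP 212 and 179 CPM at steady state and 139 and 169 CPM on AngII.

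Without cells of a second class, EYFP in AngII resident macrophages was 169.9 CPM, its ratio by *Tnfrsf11a* there 1.60, its AngII over steady state ratio in all macrophages 0.417, and that of *Dcstamp* turned to 1.13, while 4 genes of the pathway list were called higher. With clusters these were 172 CPM for EYFP and 0.597 for its ratio, and 3 genes. The causes were not tested.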
